A study of Homo sapiens with 120 samples.

Results

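The genes described here are 51 that encode the machinery that copies DNA in human cells, from the proteins that mark replication origins to those that protect moving forks. They were taken by name as a fixed module, which was chosen with earlier results of these data known. Counts of members beside the share of all tested genes are therefore descriptions. Each gene was represented by its probe set with a single gene symbol and the highest mean signal. All 51 of the 51 were bright enough to be tested, among 14017 tested of 19775 genes in all. A gene was tested if at least 3 arrays reached a log2 signal of 6.186, which is the median of all probe sets' mean values.

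Before a cell copies its genome, the origin recognition complex (ORC1 to ORC6) binds replication origins, and CDC6 and CDT1 load the MCM2 to MCM7 helicase there, a step called licensing that geminin (GMNN) blocks once S phase has begun. The kinase CDC7 with its activator DBF4, together with MCM10, CDC45 and the GINS proteins, then turns the loaded helicase on. Primase and polymerase alpha start new strands, polymerases delta and epsilon extend them on the sliding clamp PCNA, which the RFC complex loads, and RPA coats the exposed single strands. Many of these genes are transcribed in a wave around the entry into S phase under E2F transcription factors.

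The cells were TK6, a long-established lymphoblastoid line of human B cells. They received 1 of 5 chemicals for 4 h or 24 h: formaldehyde (FA), which crosslinks DNA and protein, at 50, 100 or 200 µM; methyl methanesulfonate (MMS) at 80, 160 or 320 µM or ethyl methanesulfonate (EMS) at 1, 2 or 4 mM, alkylating agents that the series design calls clastogens; and colcemid (COL) or vincristine (VCR), tubulin poisons that it calls aneugens. The doses of colcemid and vincristine are labelled 1, 2 and 4 µg/ml, but the titles leave unclear whether a decimal point was lost, so they are named here as the lowest, middle and highest dose. Each chemical formed a set of 24 arrays with untreated TK6 arrays of its own at 4 h and 24 h. There were 3 arrays, numbered as experiments 1 to 3, in each of 40 groups. The labels do not say whether the experiments were separate cultures, so p-values measure the spread between experiments, and the number of arrays limits the precision.

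All values are RMA log2 signals from Affymetrix arrays, so a difference of 1 is a doubling. Changes are treated minus untreated of the same set and time, with the standard error (SE) of limma's fit and n = 3 arrays per group, and genes with an adjusted p under 0.05 (limma, Benjamini-Hochberg over all tested genes) are called higher or lower. Array values are printed mostly for called members with the largest changes and the same direction in all 3 experiments. That choice makes separate treated and untreated groups likely, and the share of all tested genes with separate groups was not counted. Statements that groups did not overlap are therefore descriptions. Array medians lay between 6.133 and 6.243, and the highest correlation between any pair of arrays was 0.99835. Of the B cell markers, MS4A1 lay at a median log2 signal of 12.004, CD74 at 12.4 and PAX5 at 11.474 over all arrays. CD79A lay at 8.992, CD22 at 8.761 and CD79B at 8.672, not far above the brightest markers of other cells. Of the markers of other blood cells, CD14, LYZ and MPO were below the limit for testing, and 6 passed it, with medians of 5.782 for CD2, 6.162 for CD3E, 6.422 for CD3D, 6.6 for CSF1R, 8.051 for HBB and 8.067 for NKG7. Of the non-blood markers, EPCAM and KRT19 were below it, and 4 passed, with medians of 5.917 for COL1A2, 6.496 for KRT18, 6.974 for PECAM1 and 8.356 for COL1A1. After 24 h of 320 µM MMS all 6 B cell markers were called lower (median change -0.56), as were 4 of the 6 tested markers of other blood cells (-0.23) and 1 of the 4 non-blood ones (-0.18), and their part in the MMS results was not tested. As a sign of RNA quality, the 3' minus 5' difference of ACTB probe sets was 0.768 ± 0.0697 after 24 h of 200 µM formaldehyde, against 0.481 ± 0.0239 in its untreated arrays. It was 1.06 ± 0.123, 1.28 ± 0.0083 and 1.88 ± 0.26 after 24 h at the 3 rising MMS doses, against 0.942 ± 0.0792 in untreated arrays (SD, n = 3). It was 0.664 ± 0.0342 after 24 h of 4 mM EMS, against 0.520 ± 0.0715 untreated, and 0.512 ± 0.0224 and 0.499 ± 0.0387 at the highest colcemid and vincristine doses, against 0.540 ± 0.0346 and 0.463 ± 0.0327 untreated. The untreated formaldehyde arrays at 4 h were spread more widely, at 0.443 ± 0.207. The arrays hold RNA of whole cultures, so fewer cells in S phase and less RNA per cell cannot be told apart.

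After 24 h the counts of the 51 genes differed between the alkylating agents and the tubulin poisons. Under the highest MMS dose 41 were called higher and 5 lower, against 30.8% and 27.7% of all tested genes, and under the highest EMS dose 28 higher and 12 lower, against 27.8% and 23.6%. Under the highest colcemid dose 1 was called higher and 44 lower, against 18.1% and 18.3%, and under vincristine 2 higher and 40 lower, against 17.5% and 18.2%. Formaldehyde at 200 µM gave 12 higher and 21 lower, against 23.8% and 23.9%. The members lower under EMS and those higher under formaldehyde were thus near the share of all tested genes. The median change over the 51 genes was 0.50 for MMS, 0.16 for EMS, -0.38 for colcemid, -0.34 for vincristine and -0.11 for formaldehyde, while the median over all tested genes lay between -0.039 and -0.001 in these comparisons.

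**Figure D1:**
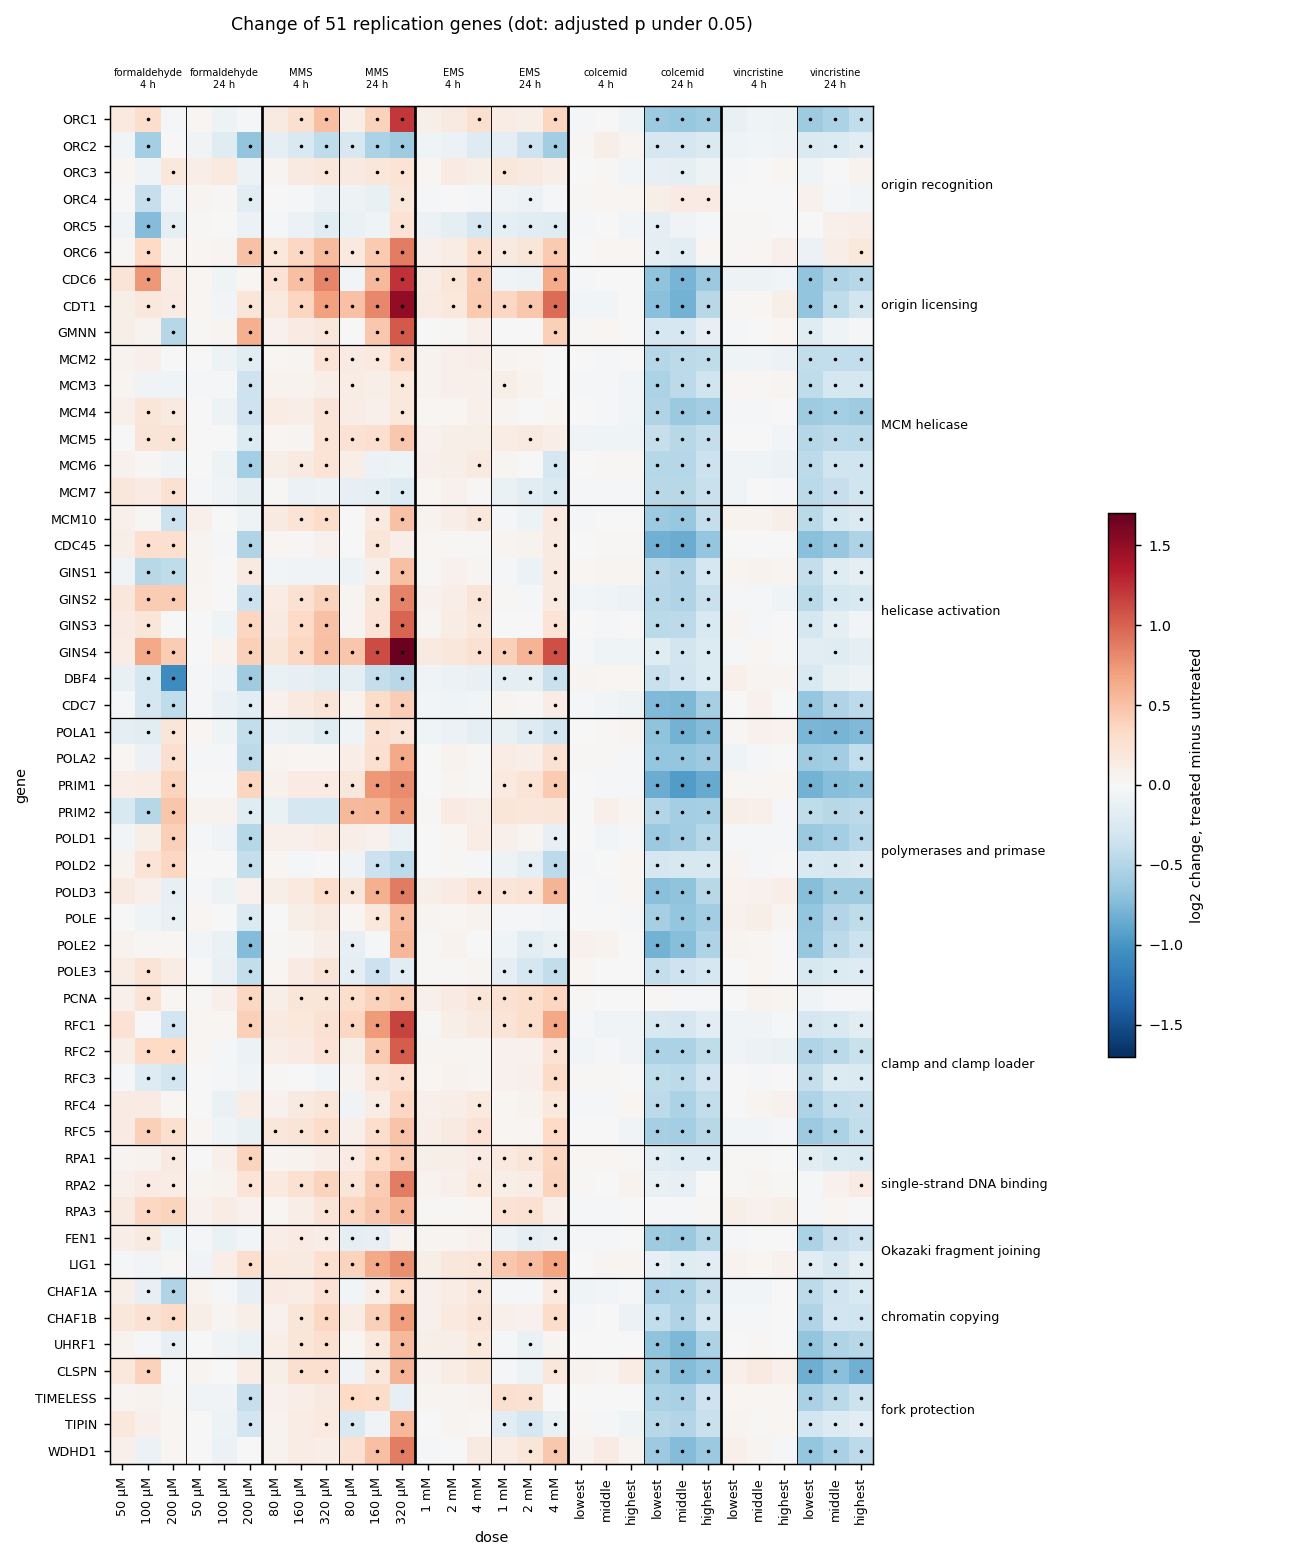
Log2 change of each of the 51 genes (rows, grouped by role) in the 30 comparisons of a dose with its untreated arrays (columns, 3 rising doses for each chemical and time). Red is higher and blue lower in treated cells, and a dot marks an adjusted p under 0.05. The colcemid and vincristine columns are without dots at 4 h and blue for nearly every gene at 24 h, and the MMS columns redden with dose up to 1.67 for GINS4.

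Promoters of 4 members are shown first. RefSeq windows of build GRCh38.p14, 250 bases before to 50 after a transcription start, matched 45 of the 51 genes with 60 windows. RPA2, POLD3, MCM5, MCM4, GINS4 and RPA3 had none. The letters searched on both strands were TTTCCCGC, TTTGGCGC, TTTCGCGC and TTTGCCGC, forms of the site that E2F factors bind. At least 1 of them stood in 23 of the 60 windows (38.3%), against 3.3% of 35116 windows of all genes. By gene, 22 of the 45 (48.9%) held one, and no share by gene was counted over all genes. The letters TTTGAA, the cell cycle homology region found at many mitotic promoters, stood in 2 of the 60 windows (3.3%), against 15.2% of all windows. The letters CCAAT stood in 51.7% of the members' windows, against 34.6% of all, and GGGCGG, the GC box, in 78.3%, against 45.0%. These are descriptions of letters, not of bound sites, and whether they relate to the changes was not tested. All 4 promoters shown hold an E2F-type match. Shown are the 250 bases before the start of CDT1, which rose most of the licensing genes under MMS (chr16:88803539-88803788, plus strand), of PCNA, the clamp, which was not called under the aneugens (chr20:5126623-5126872, minus strand), of MCM6, a helicase subunit with 4 matches (chr2:135876444-135876693, minus strand), and of POLA1, the polymerase alpha catalytic subunit (chrX:24693668-24693917, plus strand). Each is written 5' to 3' along its gene, with the E2F-type letters of either strand in capitals.
CDT1: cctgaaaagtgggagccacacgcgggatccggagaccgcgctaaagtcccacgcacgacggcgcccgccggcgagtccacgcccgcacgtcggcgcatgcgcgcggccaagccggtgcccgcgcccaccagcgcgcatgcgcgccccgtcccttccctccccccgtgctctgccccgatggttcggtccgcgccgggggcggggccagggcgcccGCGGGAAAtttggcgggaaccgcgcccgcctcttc
PCNA: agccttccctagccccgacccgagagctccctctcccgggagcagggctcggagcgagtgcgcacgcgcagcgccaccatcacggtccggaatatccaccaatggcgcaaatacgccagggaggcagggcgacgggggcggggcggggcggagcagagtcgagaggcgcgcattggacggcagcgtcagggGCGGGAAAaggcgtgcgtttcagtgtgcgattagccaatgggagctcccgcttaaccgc
MCM6: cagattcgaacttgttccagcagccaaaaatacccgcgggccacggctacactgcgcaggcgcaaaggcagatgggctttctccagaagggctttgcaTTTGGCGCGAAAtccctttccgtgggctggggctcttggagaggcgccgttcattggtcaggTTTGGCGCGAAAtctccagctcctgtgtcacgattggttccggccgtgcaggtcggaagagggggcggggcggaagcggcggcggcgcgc
POLA1: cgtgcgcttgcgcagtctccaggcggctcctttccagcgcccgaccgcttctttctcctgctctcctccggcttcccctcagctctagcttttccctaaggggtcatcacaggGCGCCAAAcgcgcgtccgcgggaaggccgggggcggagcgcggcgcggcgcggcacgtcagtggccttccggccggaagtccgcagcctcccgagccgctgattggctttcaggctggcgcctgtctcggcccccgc
The match of CDT1 began at position -35 from the start, that of PCNA at -59 and that of POLA1 at -137. In MCM6 the 4 matches lay between -152 and -86 as overlapping pairs, each pair reading as a match on both strands.

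The first comparison asked what the methylating agent MMS did after 24 h. Every licensing gene rose at 320 µM, and the largest change of the 51 was that of GINS4, a GINS subunit of the active helicase. GINS4 had log2 signals of 10.58, 10.53 and 10.49 in treated arrays, against 8.78, 8.96 and 8.84 in untreated arrays, a 3.18-fold rise (1.67 ± 0.059, adjusted p = 9.33e-16). The groups lay far apart, with every treated array above every untreated one. CDT1, a loader of the MCM helicase, had 12.31, 11.86 and 12.3, against 10.73, 10.59 and 10.62 untreated (1.51 ± 0.088, adjusted p = 2.86e-12). Its second treated array was the lowest of the 3 but still clear of the untreated ones. CDC6, the other loader, had 11.45, 11.41 and 11.37, against 10.13, 10.28 and 10.13 untreated (1.23 ± 0.048, adjusted p = 4.16e-15). GMNN, the inhibitor of licensing, rose as well, by 1.04 ± 0.046, so the loaders and their inhibitor moved in the same direction in these cultures.

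Genes of the other roles changed too, where 30.8% of all tested genes were called higher and 27.7% lower. Of the origin recognition genes 5 of 6 rose, led by ORC1 (1.20 ± 0.07) and ORC6 (0.87 ± 0.042), and ORC2 fell. All 6 clamp and clamp loader genes rose, with RFC1, the large subunit of the loader, at 1.14 ± 0.062 and PCNA at 0.45. All 3 RPA subunits rose, with RPA2 at 0.87 ± 0.047, RPA3 at 0.58 ± 0.048 and RPA1 at 0.44 ± 0.042. Of 10 polymerase and primase genes 7 rose and 2 fell, and POLD3, an accessory subunit of polymerase delta (0.88), and PRIM1, the catalytic primase subunit (0.81), led the rises. A second probe set of POLD3 changed in the opposite direction in this comparison. Among the chromatin copying genes CHAF1A, CHAF1B and UHRF1 all rose, and of the fork protection genes 3 of 4 did. LIG1, which joins Okazaki fragments, rose by 0.79 ± 0.053, while FEN1, which trims them, had 0.06 (adjusted p = 0.223).

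The MCM helicase had the lowest median change of the 10 roles, 0.18. MCM5 (0.46), MCM2 (0.37), MCM3 (0.18) and MCM4 (0.18) rose, MCM7 fell by 0.22, and MCM6 had -0.09 (adjusted p = 0.154). The falls of the MMS comparison were led by ORC2, an origin recognition subunit, with 8.88, 8.85 and 8.79 in treated arrays, against 9.46, 9.47 and 9.42 untreated (-0.61 ± 0.056, adjusted p = 4.35e-09). DBF4, the activator of CDC7, had 11.14, 10.79 and 11.17, against 11.53, 11.57 and 11.41 untreated (-0.47 ± 0.076, adjusted p = 1.73e-05). POLD2, another polymerase delta subunit, had 8.78, 8.61 and 8.59, against 9.0, 9.33 and 8.95 untreated (-0.44 ± 0.076, adjusted p = 3.39e-05). None of these 3 genes had a treated array above an untreated one. Of the 46 calls, 41 held with each experiment left out in turn, and MCM3, MCM4, ORC3, ORC4 and POLA1 lost theirs in at least 1 of these fits.

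The count rose with the MMS dose at 24 h. At 80 µM 16 members were higher and 5 lower, against 17.6% of all tested genes higher and 10.9% lower. At 160 µM 37 were higher and 6 lower, against 25.7% and 21.6% of all tested genes. At 320 µM the 41 higher and 5 lower stood against 30.8% and 27.7%. Of the 51 genes 28 rose steadily over the untreated arrays and the 3 doses, and 4 fell steadily. The share of all tested genes that did so was not counted, so these counts have no background. GINS4 averaged 9.33, 9.98 and 10.5 at the rising doses and CDT1 11.1, 11.5 and 12.2, against 8.86 and 10.7 untreated. The count at 80 µM was 12 without experiment 1 and 10 without experiment 3, and that at 160 µM was 27 without experiment 1, against 21 and 43 with all arrays. The ACTB 3' minus 5' difference rose with the MMS dose too, and its part in these results was not tested.

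**Figure D2:**
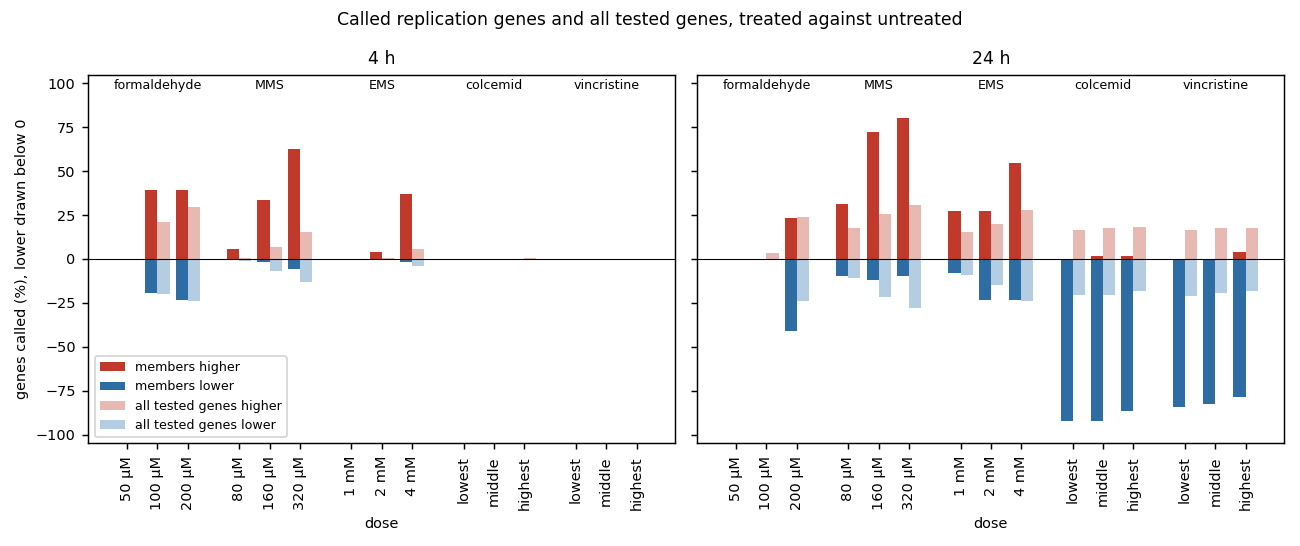
Percent of the 51 genes (dark bars) and of all 14017 tested genes (pale bars) called higher (above 0) or lower (drawn below 0) against untreated arrays, at 4 h (left) and 24 h (right), by chemical and dose. At 24 h the dark bars exceed the pale ones above 0 for MMS and below 0 for colcemid and vincristine.

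Under EMS, an ethylating agent, GINS4 and CDT1 again led the rises at 24 h. At 4 mM, GINS4 had 9.92, 9.97 and 9.91 in treated arrays, against 8.77, 8.94 and 8.79 untreated (1.10 ± 0.076, adjusted p = 8.66e-11). CDT1 had 11.48, 11.4 and 11.52, against 10.54, 10.48 and 10.51 untreated (0.96 ± 0.04, adjusted p = 3.21e-14), and LIG1 had 10.02, 10.02 and 9.93, against 9.22, 9.38 and 9.38 untreated (0.67 ± 0.052, adjusted p = 6.75e-10). In all 3 genes the groups did not overlap. The deepest falls were those of ORC2 (-0.59 ± 0.078), POLD2 (-0.44 ± 0.055) and POLE3, a histone-fold subunit of polymerase epsilon (-0.42 ± 0.041). ORC2 had 8.6, 8.76 and 8.57 in treated arrays, against 9.14, 9.33 and 9.23 untreated, and POLE3 had 11.02, 11.03 and 11.1, against 11.56, 11.4 and 11.44 untreated. Both genes were lower in every treated array than in any untreated one.

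By role, all 3 licensing genes, all 6 clamp and clamp loader genes and 7 of 8 helicase activation genes rose under 4 mM EMS. Of the MCM subunits none rose, MCM6 (-0.28) and MCM7 (-0.25) fell, and MCM2, MCM3 and MCM4 lay between 0.00 and 0.03. Of the polymerase and primase genes 3 rose and 5 fell. The call of GINS2, at 0.15, turned to -0.02 when the mean of its probe sets was used. At 1 mM 14 members were higher and 4 lower, against 15.4% and 8.94% of all tested genes, and at 2 mM 14 were higher and 12 lower, against 19.9% and 14.7%. At 4 mM the 28 higher and 12 lower stood against 27.8% and 23.6%, and the share of lower members was near that background. With 1 experiment left out the count at 1 mM was 8, 9 and 11 (experiments 1, 2 and 3), against 18 with all arrays, and at 2 mM it was 17 without experiment 1 and 16 without experiment 2, against 26. At 4 mM 29 of the 40 calls held with each experiment left out.

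MMS and EMS differ by a methyl against an ethyl group, but were given at different doses, so their values stand side by side here and the difference between them was not tested. Of the 41 genes higher under 320 µM MMS at 24 h, 27 (65.9%) were also called higher under 4 mM EMS, which is 96.4% of the 28 called there. Of the 5 genes lower under MMS all 5 were lower under EMS, which is 41.7% of its 12. Among all 51 members 41 were higher under MMS and 28 under EMS, and the overlap over all tested genes was not counted. ORC5, POLA1, POLE2 and TIPIN were called higher under MMS and lower under EMS. POLE2, the second subunit of polymerase epsilon, had 0.56 ± 0.052 under MMS and -0.13 ± 0.046 under EMS, and TIPIN, a fork protection partner of TIMELESS, had 0.57 ± 0.049 and -0.13 ± 0.049. The EMS calls of POLE2 and TIPIN were lost when 1 experiment was left out, as was the MMS call of POLA1 (0.23 ± 0.061), and the MMS call of ORC5 was lost with the mean of probe sets. Across the 51 genes the changes under MMS and EMS correlated with Pearson r = 0.875, as a description, since genes are not independent.

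**Figure D3:**
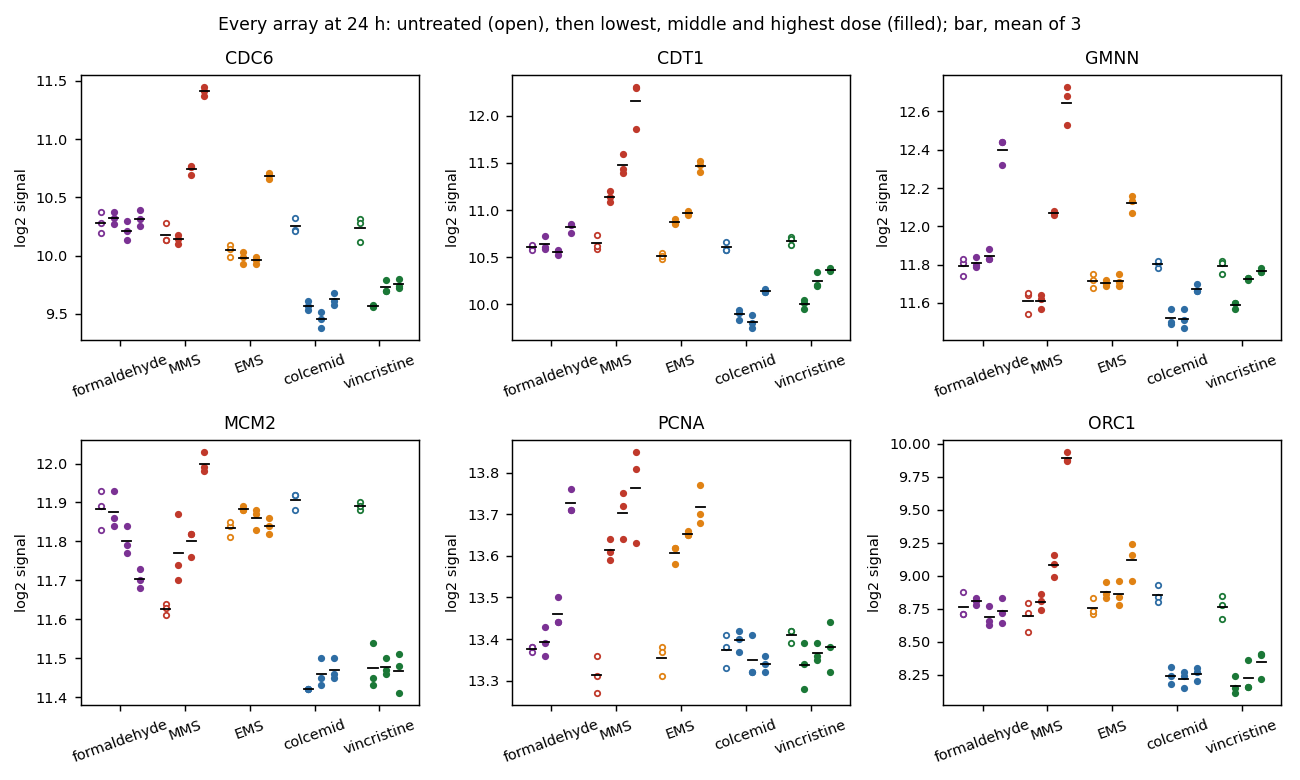
Log2 signal of every array at 24 h for CDC6, CDT1, GMNN, MCM2, PCNA and ORC1, by chemical, with the untreated arrays (open circles) followed by the lowest, middle and highest dose (filled circles) and a bar at each mean of 3 arrays. CDT1 climbs with the MMS dose to a mean of 12.2 and lies at 10.1 under the highest colcemid dose, while PCNA lies at 13.3 to 13.4 under colcemid and vincristine.

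At 4 h CDC6 and CDT1 were already higher under both alkylating agents. CDC6 had 10.88, 10.84 and 10.88 in arrays with 320 µM MMS, against 9.99, 10.06 and 10.03 untreated (0.84 ± 0.048, adjusted p = 3.26e-11). CDT1 had 11.24, 11.17 and 11.19, against 10.5, 10.57 and 10.44 untreated (0.70 ± 0.088, adjusted p = 3e-06), and ORC6 had 12.09, 12.04 and 12.1, against 11.55, 11.51 and 11.55 untreated (0.54 ± 0.042, adjusted p = 3.91e-09). In each gene the 2 groups were separate. ORC2 was lower, with 8.69, 8.72 and 8.62, against 9.15, 9.19 and 9.0 untreated (-0.44 ± 0.056, adjusted p = 3.7e-06), though with the mean of its probe sets the change was -0.17 (adjusted p = 0.075). POLA1 and ORC5 each changed by -0.20 (adjusted p = 0.015 and 0.00146), and POLA1 lost its call without experiment 1 or 2.

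In all, 32 of the 51 genes were higher and 3 lower after 4 h of 320 µM MMS, against 15.3% and 13.4% of all tested genes. At 160 µM 17 were higher and 1 lower, against 6.98% and 6.58%, and at 80 µM CDC6, RFC5 and ORC6 were higher and none lower, against 0.621% and 0.985%. The total count was 20 at 320 µM without experiment 1, against 35. It was 4 at 160 µM without experiment 1 and 8 without experiment 3, against 18, and 0 at 80 µM without any 1 of the 3 experiments, against 3. CDC6 averaged 10.3, 10.5 and 10.9 at the rising doses, against 10.03 untreated.

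With 4 mM EMS at 4 h, CDT1 had 10.8, 10.77 and 10.7 in treated arrays, against 10.27, 10.34 and 10.3 untreated (0.45 ± 0.04, adjusted p = 1.75e-07). CDC6 had 10.36, 10.3 and 10.34, against 9.97, 9.92 and 9.81 untreated (0.44 ± 0.05, adjusted p = 5.53e-06). ORC6 rose by 0.30 ± 0.047 (adjusted p = 0.000201) and ORC5 fell by 0.29 (SE 0.049, adjusted p = 0.000605). These 4 genes kept their calls with each experiment left out, and the other 16 of the 20 calls did not. Together 19 members were higher and 1 lower, against 5.55% and 4.05% of all tested genes, and the count was 5, 7 and 4 without experiment 1, 2 and 3. ORC5 lost its call with the mean of probe sets (-0.18, adjusted p = 0.133). At 2 mM CDC6 (0.21) and CDT1 (0.18) were higher and none lower, against 0.721% and 0.335%, and no member was called when any 1 experiment was left out. At 1 mM limma called 0 members, against 0.143% of all tested genes. An unadjusted p under 0.05 was found for 8 members, against 589 of the 14017 tested genes.

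The change at 24 h minus that at 4 h was tested at the highest dose. For MMS 34 members were called higher at 24 h and 6 lower, against 25.6% and 19.7% of all tested genes. For EMS 15 were higher and 9 lower, against 21.4% and 16.9%, and the count of 24 was 15 without experiment 1 and 14 without experiment 2. GINS4 changed more at 24 h, by 1.16 for MMS and 0.84 for EMS. Among the MCM genes 1 was higher and 1 lower at 24 h for MMS, and 0 higher and 2 lower for EMS. All 3 licensing genes were called higher at 24 h for both chemicals, but for EMS CDC6 lost this call without experiment 1 (0.14, adjusted p = 0.244) or 2 (0.19, adjusted p = 0.198).

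Colcemid and vincristine lowered nearly the whole machinery at 24 h. PRIM1, the catalytic primase subunit, had 9.56, 9.53 and 9.54 in arrays with the highest colcemid dose, against 10.36, 10.41 and 10.43 untreated (-0.86 ± 0.037, adjusted p = 4.93e-13). POLA1 had 8.93, 8.86 and 8.95, against 9.56, 9.75 and 9.63 untreated (-0.74 ± 0.054, adjusted p = 1.21e-09), and CLSPN, the fork protein claspin, had 7.87, 7.89 and 7.94, against 8.44, 8.65 and 8.57 untreated (-0.66 ± 0.052, adjusted p = 4.12e-09). Every treated array lay below every untreated one in these genes.

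Under the highest vincristine dose the same 3 genes led. CLSPN had 7.79, 7.97 and 7.81 in treated arrays, against 8.62, 8.77 and 8.65 untreated (-0.82 ± 0.061, adjusted p = 8.19e-10). POLA1 had 8.91, 8.87 and 8.88, against 9.5, 9.77 and 9.63 untreated (-0.75 ± 0.058, adjusted p = 1.82e-09), and PRIM1 had 9.65, 9.61 and 9.43, against 10.23, 10.29 and 10.25 untreated (-0.69 ± 0.054, adjusted p = 1.58e-09). The groups were again separate. All 40 genes lower under vincristine were among the 44 lower under colcemid, 90.9% of that list, although the 2 sets share no untreated arrays. These lists hold most of the 51 members, and the overlap over all tested genes was not counted. Across the 51 genes the changes correlated with r = 0.908.

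All 6 MCM genes and all 10 polymerase and primase genes fell under both chemicals, as did the 3 chromatin copying and the 4 fork protection genes. MCM4 fell most among the MCM genes, by 0.59 (SE 0.036) under colcemid and 0.60 (SE 0.037) under vincristine. CDC45, which rides with the helicase, fell by 0.65 (SE 0.042) and 0.52 (SE 0.059), and UHRF1, which helps copy DNA methylation, by 0.54 (SE 0.04) and 0.47 (SE 0.045). CDC6 fell by 0.63 (SE 0.044) and 0.48 (SE 0.068). Of the 45 colcemid calls 41 held with each experiment left out, and of the 42 vincristine calls 33 did. Of the 51 genes none rose or fell steadily over the untreated arrays and the 3 colcemid doses at 24 h, and 1 rose and 1 fell steadily with vincristine. The share of all tested genes that did so was not counted. At the lowest colcemid dose 0 members were higher and 47 lower, against 16.6% and 20.7% of all tested genes, with a median of -0.49. At the middle dose 1 was higher and 47 lower, against 17.4% and 20.3%, and at the highest 1 and 44, against 18.1% and 18.3%. For vincristine the counts were 0 higher and 43 lower at the lowest dose, against 16.6% and 20.8%, then 0 and 42, against 17.4% and 19.5%, and 2 and 40, against 17.5% and 18.2%.

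A few members did not follow. PCNA had 13.34, 13.32 and 13.36 in arrays with the highest colcemid dose, against 13.38, 13.33 and 13.41 untreated (-0.03 ± 0.038, adjusted p = 0.657). It had 13.38, 13.32 and 13.44 with vincristine, against 13.42, 13.39 and 13.42 untreated (-0.03 ± 0.048, adjusted p = 0.713). The arrays overlapped in both sets, and PCNA was not called lower in any of the 30 dose comparisons. Under 320 µM MMS it had 13.81, 13.63 and 13.85, against 13.36, 13.31 and 13.27 untreated, without overlap. RPA2 and RPA3 had 0.00 and 0.03 under colcemid, and RPA3 had 0.00 under vincristine, where RPA2 was called at 0.14. In the origin recognition complex ORC3 and ORC5 were not called under the highest dose of either chemical, ORC4 was called higher under colcemid (0.14 ± 0.047, adjusted p = 0.0225) and ORC6 under vincristine (0.18 ± 0.054, adjusted p = 0.0121). The calls of ORC4, ORC6 and RPA2 were lost when 1 experiment was left out, and so were those of ORC2 under both chemicals (-0.25 and -0.19). GMNN fell by 0.13 under colcemid, a call lost without experiment 1 or 2, and had -0.03 under vincristine (adjusted p = 0.639).

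At 4 h limma called 0 of the 51 genes at each dose of both chemicals. The number of members with an unadjusted p under 0.05 was 0, 1 and 2 at the rising colcemid doses. It was 1, 1 and 3 at the rising vincristine doses. Such a p was found for 265, 367 and 1150 of the 14017 tested genes under colcemid, and 511, 565 and 1112 under vincristine. Over all tested genes 0%, 0.0642% and 0.913% were called for colcemid, and 0%, 0.00713% and 0.25% for vincristine. At the highest dose every member lay between -0.10 and 0.13 under colcemid and between -0.12 and 0.11 under vincristine. The test of 24 h against 4 h called 0 members higher and 41 lower for colcemid, against 10.5% and 12% of all tested genes, and 0 higher and 36 lower for vincristine, against 10% and 12.4%.

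The difference between the classes was itself tested, as the mean change under MMS and EMS minus that under colcemid and vincristine at the highest doses. Each class held only 2 chemicals. The p-values measure the spread between arrays of a group, not that between chemicals of a class, so they hold for these chemicals only. At 24 h 45 members were higher under the clastogens and 3 lower, against 29.9% and 24.7% of all tested genes, with a median difference of 0.67. The largest differences were those of CDT1 (1.62 ± 0.057, adjusted p = 2.86e-37), GINS4 (1.59 ± 0.07, adjusted p = 9.05e-32) and CDC6 (1.49 ± 0.051, adjusted p = 1.1e-37). ORC2 (-0.38 ± 0.068), DBF4 (-0.26 ± 0.056) and POLD2 (-0.19 ± 0.061) were lower, and POLD2 lost its call without experiment 2. ORC4, ORC5 and POLE3 were not called. At 4 h 30 were higher and 4 lower, against 10.9% and 12.7%, led by CDC6 (0.66 ± 0.051) and CDT1 (0.52 ± 0.057). Of the 41 genes higher under MMS at 24 h, 34 (82.9%) were lower under colcemid, which is 77.3% of its 44. As 44 of all 51 members were lower under colcemid, that share was no higher among the genes that rose under MMS. The overlap over all tested genes was not counted. Across the 51 genes the 2 sets of changes correlated with r = -0.075.

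**Figure D4:**
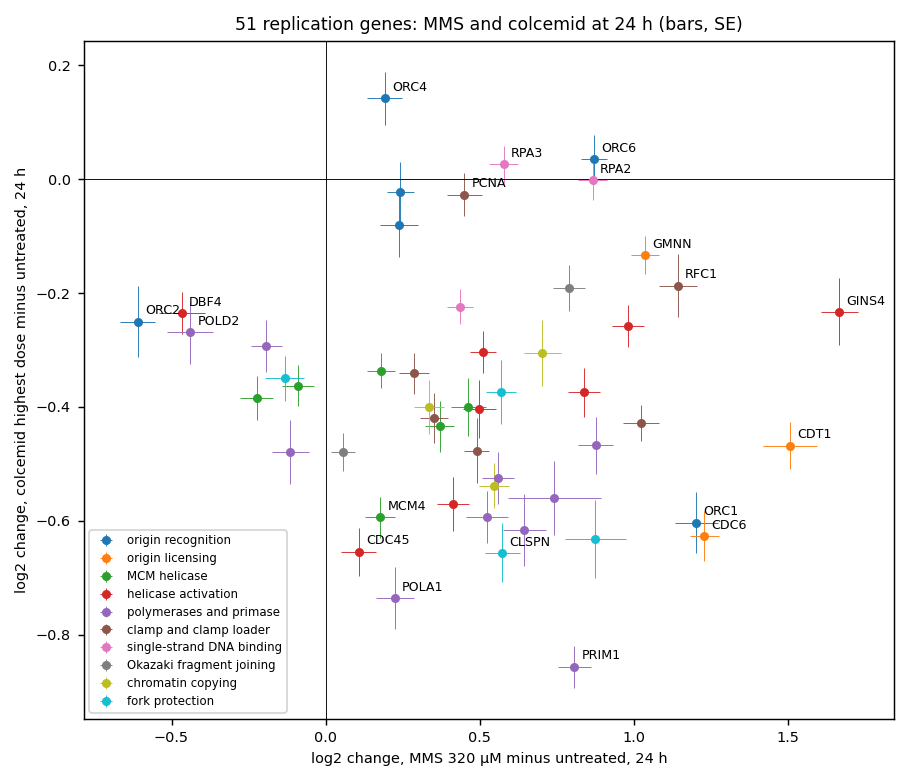
Log2 change under 320 µM MMS (horizontal axis) against that under the highest colcemid dose (vertical axis) at 24 h, each against its own untreated arrays, for the 51 genes coloured by role, with bars for the SE. Most genes lie at the lower right, higher under MMS and lower under colcemid, while ORC2, DBF4 and POLD2 lie at the lower left and PCNA and RPA3 near the horizontal line at 0.

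Formaldehyde changed the 51 genes in both directions at 4 h, and differently at 100 and 200 µM. At 200 µM DBF4 had 10.44, 10.62 and 10.44 in treated arrays, against 11.47, 11.6 and 11.64 untreated, a 2.1-fold fall (-1.07 ± 0.057, adjusted p = 1.15e-12). CHAF1A, the large subunit of the histone chaperone CAF-1, had 9.63, 9.52 and 9.53, against 10.02, 10.12 and 10.07 untreated (-0.51 ± 0.057, adjusted p = 1.42e-07), and GMNN had 10.98, 11.11 and 11.04, against 11.49, 11.62 and 11.48 untreated (-0.49 ± 0.051, adjusted p = 6.54e-08). The groups did not overlap in these genes. The rises were led by PRIM2, the large primase subunit, with 7.89, 7.88 and 7.93, against 7.37, 7.49 and 7.43 untreated (0.47 ± 0.061, adjusted p = 1.53e-06). GINS4 had 9.45, 9.4 and 9.4, against 9.07, 8.99 and 8.88 untreated (0.44 ± 0.083, adjusted p = 0.000152), and GINS2 had 10.3, 10.4 and 10.34, against 9.91, 10.01 and 9.84 untreated (0.43 ± 0.055, adjusted p = 1.2e-06). Here too each treated array lay above the untreated ones.

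By role, 6 of the 10 polymerase and primase genes rose at 200 µM and all 3 RPA genes did, while the helicase activation and chromatin copying genes moved both ways. Of the 8 helicase activation genes 4 fell (MCM10, GINS1, DBF4 and CDC7) and 3 rose (CDC45, GINS2 and GINS4), and of the 3 chromatin copying genes CHAF1A and UHRF1 fell and CHAF1B rose (0.32). None of the 4 fork protection genes was called, and they lay between 0.01 and 0.03. In all 20 members were higher and 12 lower, against 29.6% and 24.2% of all tested genes. At 100 µM 20 were higher and 10 lower, against 20.9% and 19.8%, and at both doses the share of lower members was near that background. Of the 32 calls at 200 µM 18 held with each experiment left out. The falls of ORC5 (-0.15), POLD3 (-0.14) and RFC3 (-0.32) turned to 0.13, 0.11 and 0.19 with the mean of probe sets. At 50 µM limma called 0 members, against 0.82% of all tested genes. An unadjusted p under 0.05 was found for 18 members, against 1599 of the 14017 tested genes. Same-numbered arrays of this comparison deviated together, with every pair's correlation at 0.1732 or more, and 2 members were called with experiment as a replicate block and 8 when all arrays shared one fit.

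The direct test of 200 against 100 µM at 4 h called 9 members higher and 14 lower at the higher dose, against 17.4% and 17.5% of all tested genes, and the count of 23 was 15 without experiment 2. CDC6 had 9.88, 9.96 and 9.77 at 200 µM, against 10.59, 10.38 and 10.47 at 100 µM, with 9.76, 9.82 and 9.66 untreated. It thus stood higher at 100 µM than in any other formaldehyde group of this time and near the untreated level at 200 µM (200 minus 100 µM, -0.61 ± 0.068, adjusted p = 2.05e-07). PRIM2 had 7.89, 7.88 and 7.93 at 200 µM, against 7.05, 6.86 and 6.91 at 100 µM, so that it was above the untreated arrays at the higher dose and below them at the lower (0.96 ± 0.061, adjusted p = 3.45e-11). ORC5 had 10.3, 10.3 and 10.31 at 200 µM, against 9.66, 9.83 and 9.67 at 100 µM and 10.53, 10.54 and 10.3 untreated (0.58 ± 0.062, adjusted p = 1.29e-07). Of the 51 genes 6 rose and 4 fell steadily with the formaldehyde dose at 4 h, against 32 and 5 with the MMS dose. For neither chemical was the share of all tested genes that did so counted.

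After 24 h formaldehyde called no member at 50 or 100 µM, against 0% and 3.81% of all tested genes called. At these doses 0 and 7 members had an unadjusted p under 0.05 in limma, against 385 and 2031 of the 14017 tested genes. At 200 µM 12 were higher and 21 lower, against 23.8% and 23.9%, so that the share of higher members was near the background and that of lower members above it. The ACTB 3' minus 5' difference was also higher in these 200 µM arrays, and its part in the result was not tested. POLE2 had 9.53, 9.58 and 9.55 in treated arrays, against 10.3, 10.29 and 10.28 untreated (-0.74 ± 0.054, adjusted p = 2.81e-10). ORC2 had 8.48, 8.6 and 8.35, against 9.08, 9.21 and 9.14 untreated (-0.67 ± 0.084, adjusted p = 7.89e-07), and DBF4 had 11.0, 11.05 and 10.89, against 11.54, 11.59 and 11.6 untreated (-0.60 ± 0.057, adjusted p = 1.36e-08). All 3 were lower in every treated array.

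Of the rises, GMNN had 12.44, 12.32 and 12.44 in treated arrays, against 11.74, 11.81 and 11.83 untreated (0.60 ± 0.051, adjusted p = 2.85e-09). ORC6 had 12.01, 11.88 and 11.97, against 11.4, 11.39 and 11.58 untreated (0.50 ± 0.082, adjusted p = 3.03e-05), and RFC1 had 9.26, 9.06 and 9.24, against 8.77, 8.86 and 8.7 untreated (0.41 ± 0.085, adjusted p = 0.000359). PCNA had 13.76, 13.71 and 13.71, against 13.38, 13.37 and 13.38 untreated (0.35 ± 0.047, adjusted p = 1.93e-06). These genes were higher in every treated array. Of the 6 MCM genes 5 fell and none rose, and of the 10 polymerase and primase genes 8 fell and 1, PRIM1, rose. None of the clamp and clamp loader, RPA, Okazaki fragment and chromatin copying genes fell. All 12 genes higher under formaldehyde were also higher under 320 µM MMS and under 4 mM EMS, 29.3% and 42.9% of those lists. Of the 21 lower genes 13 (61.9%) were higher under MMS, among them MCM2 to MCM5, and 9 (42.9%) were lower under EMS. Among all 51 members 41 were higher under MMS, and 28 were higher and 12 lower under EMS. These overlaps were not counted over all tested genes. Of the 33 formaldehyde calls 26 held with each experiment left out, and MCM2, MCM5, CDT1, GINS1, PRIM2, ORC4 and CDC7 lost theirs in at least 1 fit. The test of 200 against 100 µM at 24 h called 14 members higher and 20 lower, against 20.5% and 22.3%.

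Between 4 h and 24 h of 200 µM formaldehyde 12 genes were called in opposite directions, with the difference between the times also called. The share of all tested genes called in opposite directions was not counted for any chemical. Under 200 µM formaldehyde 29.6% of all tested genes were called higher and 24.2% lower at 4 h, and 23.8% and 23.9% at 24 h. CDC45 (-0.51 at 24 h and 0.27 at 4 h), GINS2 (-0.36 and 0.43), POLD1 (-0.48 and 0.40), POLD2 (-0.40 and 0.36), POLA1 (-0.42 and 0.21), POLA2 (-0.45 and 0.27), PRIM2 (-0.21 and 0.47), MCM4 (-0.36 and 0.16) and MCM5 (-0.23 and 0.22) were lower at the later time and higher at the earlier one. These encode parts of the helicase and of the polymerases. GMNN (0.60 and -0.49), GINS1 (0.15 and -0.44) and RFC1 (0.41 and -0.32) went the other way. POLD1, the catalytic subunit of polymerase delta, had 8.68, 8.85 and 8.79 in treated arrays at 24 h, against 9.23, 9.32 and 9.22 untreated, and 9.56, 9.63 and 9.67 at 4 h, against 9.12, 9.2 and 9.32 untreated. Its groups were separate at both times, on opposite sides. Over the 51 genes the change at 24 h minus that at 4 h was called higher for 14 and lower for 22, against 25.8% and 27.5% of all tested genes. Under MMS 3 genes (ORC5, POLA1 and POLE3) and under EMS 1 (MCM6) were called in opposite directions at the 2 times. With the mean of probe sets MCM6 lost its EMS call at 24 h (-0.09) and RFC1 its formaldehyde call at 4 h (-0.08).

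**Figure D5:**
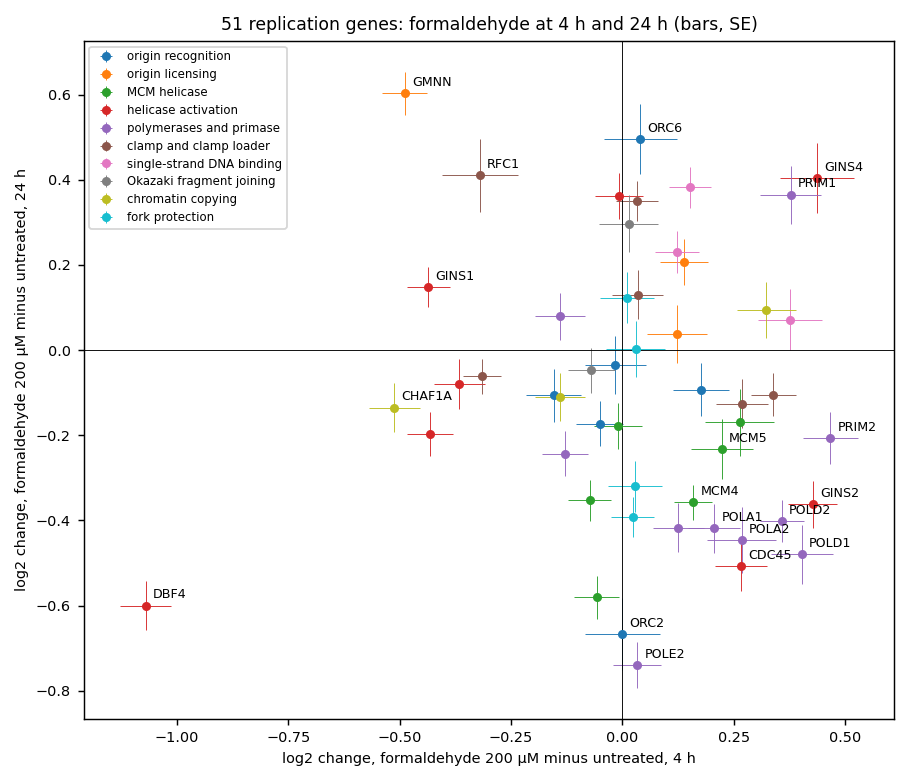
Log2 change under 200 µM formaldehyde at 4 h (horizontal axis) against that at 24 h (vertical axis), each against the untreated arrays of its time, for the 51 genes coloured by role, with bars for the SE. Polymerase and helicase genes such as POLD1, POLD2 and GINS2 lie at the lower right, GMNN and RFC1 at the upper left, and DBF4 at the far left below 0.

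Formaldehyde was set against the clastogens in a test of 200 µM minus the mean of the highest MMS and EMS doses. Here too the p-values measure the spread between arrays of a group, not that between chemicals. At 24 h 0 members were higher and 40 lower under formaldehyde, against 14.1% and 21.4% of all tested genes, with a median difference of -0.39. CDT1 (-1.03 ± 0.078, adjusted p = 4.91e-16), GINS4 (-0.98 ± 0.091, adjusted p = 5.11e-13) and CDC6 (-0.90 ± 0.066, adjusted p = 1.9e-16) differed most. PCNA (-0.06 ± 0.056, adjusted p = 0.473) and GMNN (-0.12 ± 0.049, adjusted p = 0.0588) were among the 11 not called. At 4 h 11 members were higher and 25 lower, against 24.1% and 23.4%. All 3 licensing genes were lower, and 6 of the 10 polymerase and primase genes were higher. DBF4 had the largest difference at this time (-0.92 ± 0.078, adjusted p = 7.12e-15).

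Over the 30 dose comparisons some members stood out by their own pattern. ORC2 was called lower in 15 and higher in none, and at 24 h it was lower at the highest dose of all 5 chemicals, as were POLD2 and POLE3. DBF4 was lower in 12 and higher in none. PCNA was higher in 11 and RPA3 in 8, and neither was ever called lower. CDT1, ORC6 and RPA2 were each higher in 13. As a description over all 120 arrays, which differ in set, time and treatment, UHRF1 (r = 0.911), POLD3 (0.91), ORC1 (0.907) and RFC5 (0.899) followed the mean of the other members most closely. ORC2 (-0.073), DBF4 (0.003), ORC4 (0.058) and POLD2 (0.086) followed it least.

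The untreated arrays differed between times as well. In the formaldehyde set 21 members were higher and 4 lower at 24 h than at 4 h, against 14.6% and 14.9% of all tested genes. The MMS set had 14 higher and 6 lower (11.6% and 20.6%), the EMS set 24 and 4 (14.1% and 15.8%), the colcemid set 22 and 5 (16.4% and 18.5%) and the vincristine set 23 and 3 (16.9% and 16%). ORC2, ORC4, CDC6, MCM2, MCM4, MCM6, MCM10, RFC4, RPA3, FEN1 and CHAF1A were higher at 24 h in all 5 sets. The share of all tested genes higher in all 5 sets was not counted. ORC2 rose by 0.34 to 0.59 and MCM6 by 0.31 to 0.48, while LIG1 was lower in 4 sets. The count was 16 without experiment 3 in the formaldehyde set, against 25, between 5 and 13 in the MMS set, against 20, and 16 or 17 in the EMS set, against 28. Each treated group was therefore compared only with untreated arrays of its own time.

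Other genes around replication moved partly with the 51. Of 34 further replication factors 21 were higher and 7 lower under 320 µM MMS at 24 h, against 30.8% and 27.7% of all tested genes, led by MCM9, a relative of the MCM helicase (1.37 ± 0.111), and ATAD5, which unloads PCNA (1.31 ± 0.085). Under colcemid 1 was higher and 27 lower, against 18.1% and 18.3%, and under vincristine 0 and 25, against 17.5% and 18.2%, with TOPBP1, a helicase activation and checkpoint scaffold, at -0.96 ± 0.035 and -1.20 ± 0.05. Of 16 nucleotide supply genes 8 were higher and 4 lower under MMS, the lower ones near the 27.7% of all tested genes, with RRM2B, the p53-induced ribonucleotide reductase subunit, at 2.33 ± 0.111 and TK1, the S phase thymidine kinase, at 2.03 ± 0.076. Under colcemid 1, RRM2B (0.98 ± 0.069), was higher and 13 were lower, among them RRM2 (-0.60 ± 0.032).

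Of 24 regulators of the step into S phase, 16 were higher and 7 lower under MMS at 24 h, against 30.8% and 27.7% of all tested genes, and the share of lower ones was near that background. E2F7, a repressor of E2F targets, had 2.61 ± 0.064, and the cell cycle inhibitor CDKN1A had 2.25 ± 0.047. CDKN1A was also higher under 200 µM formaldehyde (1.93 ± 0.064), 4 mM EMS (1.93 ± 0.037), colcemid (1.04 ± 0.042) and vincristine (0.81 ± 0.054). CCNE2, a cyclin of S phase entry, was at -1.01 ± 0.074 under colcemid and -1.29 ± 0.071 under vincristine. E2F3 had -2.03 ± 0.069 and E2F7 -1.29 ± 0.061 after 4 h of 200 µM formaldehyde. Of 11 replication checkpoint genes 2 were higher and 7 lower there, against 29.6% and 24.2% of all tested genes. WEE1, the kinase that restrains CDK1, was at -1.0 ± 0.055, while RAD9A and HUS1, subunits of the checkpoint clamp, were at 0.48 ± 0.062 and 0.46 ± 0.081.

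Genes of mitosis gave other counts. Of 30, 8 were higher and 16 lower under MMS at 24 h, against 30.8% and 27.7% of all tested genes, and 0 higher and 23 lower at 4 h, against 15.3% and 13.4%, with cyclin B1 (CCNB1) at -1.45 ± 0.055 and -0.98 ± 0.055. NDC80 (0.93 ± 0.068) and KIF2C (0.8 ± 0.056) were among the 8 higher at 24 h. Under colcemid 6 were higher and 13 lower at 24 h, against 18.1% and 18.3%, and under vincristine 15 and 7, against 17.5% and 18.2%, with CCNB1 at 0.42 ± 0.052 and 0.64 ± 0.053. Larger falls were those of UBE2C (-0.95 ± 0.043 under colcemid and -1.07 ± 0.067 under vincristine) and CDK1 (-0.89 ± 0.053 and -1.06 ± 0.055). All values in these lists are for the highest doses.

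Many members have further probe sets on the array, which were compared with the one used. In the 8 highest-dose comparisons with calls, 230 pairs of a called member and another of its probe sets could be formed over 25 genes, and in 207 the change had the same sign. The 23 of opposite sign were mostly probe sets of GINS2, GINS4, MCM4, POLA2, POLD3, RFC3 and RFC5. For POLD3 the second probe set had -0.32 under 320 µM MMS at 24 h, against 0.88 for the one used, and for RFC5 it had -0.03, against 0.49.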

How the data were processed

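Total RNA of TK6 cells was measured on 120 Affymetrix HG-U133 Plus 2 arrays. The deposited values are log2 signals of probe sets, and the submitters' processing notes name RMA as the tool. Its version, and whether it was run once on all arrays, are not given in the sources used here. RMA gives arrays nearly the same distribution of signals, so a shift shared by most genes would not show. Of 54675 probe sets, 41091 named 1 gene symbol, and 1801 with several and 11721 with none were left out. Each set of 24 arrays was fitted in limma 3.58.1 (R 4.3.3) with 8 group means and no block, with tests moderated by empirical Bayes and adjusted by Benjamini-Hochberg over 14017 genes. The 2 comparisons between classes of chemical used the arrays of all their sets in 1 fit. Tables and figures used python 3.11.15, pandas 2.3.3, numpy 2.4.6 and matplotlib 3.10.9.

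The 51 members, the roles and the other lists were chosen with earlier results of these data known. Array values are printed for called members with the largest changes, up to 3 each way per highest-dose comparison, with the same direction in each of the 3 experiments, and those of PCNA, MCM2, CDC6, CDT1, GMNN and ORC1 at 24 h are plotted. Up to 2 genes each way were named from the other lists. CDC6, PRIM2 and ORC5 at 100 µM formaldehyde, POLD1 at both times and the values of other members in the text were chosen after their values were seen.

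The labels number arrays as experiments 1 to 3. Deviations from the group means of same-numbered arrays correlated above 0 in 29 of 30 comparisons (median 0.286). Between different numbers the median was -0.141. Deviations within a group of 3 arrays sum to 0, so that value largely follows from the first and is no separate comparison. In 19 of the 30 comparisons every same-numbered pair exceeded 0.1, so the pairing did not meet its rule in the rest and the block is an alternative. The fits were tested on simulated data for 14017 genes, and for 24 h of 320 µM MMS and 4 h of 200 µM formaldehyde 91% of changes of 0.5 and 100% of changes of 1 on the log2 scale were recovered. Of the unchanged genes 13 and 9 were called. The simulation drew noise independently for each array and changed 100 genes at each size, so its rates need not hold for these data. The alternatives were a replicate block, testing dim genes too, averaging the probe sets of a gene, a further quantile normalization, 1 fit over the 120 arrays, dropping each experiment in turn, and dropping 1 untreated formaldehyde array (experiment 3, 4 h).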

Additional observations from a re-analysis of the deposited data

Results flagged for a closer look

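These results are listed because the change at the highest dose differed between 24 h and 4 h in limma's test of that difference. It was called higher at 24 h for 14 members and lower for 22 under formaldehyde, against 25.8% and 27.5% of all tested genes. It was called higher for 34 and lower for 6 under MMS, against 25.6% and 19.7%, and higher for 15 and lower for 9 under EMS, against 21.4% and 16.9%. It was called lower for 41 members under colcemid, against 12%, and for 36 under vincristine, against 12.4%. The members higher under formaldehyde and those lower under EMS were near the share of all tested genes.

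Under formaldehyde 12 members were also called in opposite directions at the 2 times, and the share of all tested genes called so was not counted. The change at 24 h minus that at 4 h was 1.09 for GMNN, 0.58 for GINS1 and 0.73 for RFC1. It was -0.52 for MCM4, -0.45 for MCM5, -0.77 for CDC45, -0.79 for GINS2, -0.62 for POLA1, -0.71 for POLA2, -0.67 for PRIM2, -0.88 for POLD1 and -0.76 for POLD2. Under MMS it was 0.45 for ORC5, 0.43 for POLA1 and -0.41 for POLE3, and under EMS it was -0.43 for MCM6. Single calls behind these pairs that were lost with 1 experiment left out were those of MCM4, MCM5, POLA1, POLA2 and RFC1 at 4 h and of MCM5, GINS1 and PRIM2 at 24 h for formaldehyde, of POLA1 at both times and POLE3 at 4 h for MMS, and of MCM6 at 4 h for EMS. With the mean of probe sets the calls of RFC1 at 4 h for formaldehyde and of MCM6 at 24 h for EMS were lost.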

How the results depend on the processing

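The number of called members was compared in 46 comparisons, and each called member of 19 comparisons (685 calls) on its own. With experiment as a replicate block 44 of the 46 counts stayed within 1.5 times and all 685 calls held; the counts were 2 in place of 0 for 50 µM formaldehyde at 4 h and 5 in place of 3 for 80 µM MMS at 4 h. For 50 µM formaldehyde at 4 h all arrays in one fit gave 8, and for 100 µM at 24 h, with 0 in the separate fit, it gave 2 and the mean of probe sets 1. For 80 µM MMS at 4 h the count was 1 with no filter on dim genes, 8 after a further quantile normalization and 8 when all arrays shared one fit. For 2 mM EMS at 4 h, with 2, it was 0 with no filter, 1 with the mean of probe sets and 8 after the further quantile normalization. With the mean of probe sets 636 calls held, 42 were lost and 7 changed sign, which were ORC5 (0.13), POLD3 (0.11) and RFC3 (0.19) at 4 h of 200 µM formaldehyde, GINS2 at 24 h of 4 mM EMS (-0.02), and the differences between times of POLD3 (-0.13) and RFC3 (-0.01) for formaldehyde and of POLD3 (-0.01) for EMS. The other alternatives kept the sign of all 685, and with 1 experiment left out 551 to 582 calls held. The counts then lay at 0 for 80 µM MMS, between 4 and 12 for 160 µM and between 20 and 31 for 320 µM at 4 h, and between 10 and 16 for 80 µM and 27 and 39 for 160 µM at 24 h. For EMS they lay at 0 for 2 mM and between 4 and 7 for 4 mM at 4 h, between 8 and 11 for 1 mM and 16 and 18 for 2 mM at 24 h, and between 14 and 18 for the difference between times. For 200 against 100 µM formaldehyde at 4 h they lay between 15 and 21, and for untreated arrays at 24 h against 4 h between 16 and 17 in the formaldehyde set, 5 and 13 in the MMS set and 16 and 17 in the EMS set. These fits have fewer arrays. Dropping 1 untreated formaldehyde array (experiment 3, 4 h) kept 92 of 104 calls and moved none of 6 counts by over 1.5 times. Changes of under about 0.2 on the log2 scale were often within the spread between arrays.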
